A study of Mus musculus with 8 samples.

Results

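The genes described here encode the translation initiation factors (eIFs) and elongation factors (eEFs) of the mouse, with the proteins that bind or modify them. They were taken as all protein-coding autosomal genes whose symbols start with Eif1 to Eif6, Eef1 or Eef2, without the kinases whose symbols start with Eif2ak. By that rule 59 of the 23369 genes in the count table were chosen, and 56 of them had enough counts to be tested. The rule used names and chromosomes and no measured value.

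The RNA came from neutrophils sorted as CD45+CD11b+Ly6G+ cells out of inflamed spinal cords. The mice were C57BL/6N with EAE (experimental autoimmune encephalomyelitis), a disease model in which immunisation leads immune cells to attack myelin, widely used to study multiple sclerosis. The groups were ZT13 (4 libraries) and ZT1 (4 libraries), where ZT (zeitgeber time) counts hours from lights-on. Both groups shared strain, disease induction, tissue, sort gate and labelled batch, and mice without EAE were not analysed here. The single comparison asks how levels in these neutrophils differed between the time points.

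Initiation begins when eIF4F (the cap-binding protein eIF4E, the scaffold eIF4G and the helicase eIF4A) engages the capped end of an mRNA. A small ribosomal subunit carrying eIF1, eIF1A, eIF3, eIF5 and the ternary complex of eIF2, GTP and initiator tRNA then scans to the start codon. eIF2B recharges eIF2 with GTP, eIF5B joins the large subunit, and eEF1 and eEF2 drive elongation. Neutrophils are short-lived cells with condensed nuclei that nevertheless make cytokines and other proteins after they leave the blood.

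Total counts were 46152067 to 58251904 in the ZT13 libraries and 46932065 to 67873023 in the ZT1 libraries, and the factor genes together held 0.508 ± 0.027% of the counts at ZT13 and 0.533 ± 0.026% at ZT1 (mean ± SD, n = 4 each). Genes with at least 1 count numbered 14909 ± 766 at ZT13 and 16891 ± 815 at ZT1, and the groups did not overlap (13945 to 15751 at ZT13, 15760 to 17701 at ZT1). The summed level of 8 neutrophil markers in CPM (counts scaled to library size) was 78289 to 113371 in ZT13 libraries and 54173 to 82206 in ZT1 libraries. S100a8 and S100a9 made up most of it, at 39063 and 41764 CPM at ZT13 and 25185 and 27577 CPM at ZT1 on average. Of the 8 markers, 6 had positive log2 fold changes, among them Ly6g (0.39), Cxcr2 (0.25), Mmp9 (0.10) and Itgam (0.02). Csf3r and Ptprc were negative, at -0.29 and -0.18. The sums of the other marker lists also overlapped between the groups. They were 577 to 917 CPM at ZT13 and 676 to 989 CPM at ZT1 for 11 microglia and macrophage genes, and 584 to 916 CPM at ZT13 and 569 to 1460 CPM at ZT1 for 7 genes of immature or dividing neutrophils. Further sums were 1425 to 1834 CPM at ZT13 and 1243 to 1630 CPM at ZT1 for 7 monocyte and dendritic cell genes, and 1.93 to 8.26 CPM at ZT13 and 2.01 to 5.54 CPM at ZT1 for 9 T and NK cell genes. The B cell sum was 153 to 194 CPM at ZT13 and 136 to 249 CPM at ZT1 over 4 genes, and the neural and glial sum 109 to 192 CPM at ZT13 and 107 to 155 CPM at ZT1 over 6 genes. The remaining sums were 9.55 to 18.6 CPM at ZT13 and 9.62 to 21.6 CPM at ZT1 for 6 vessel genes, and 2.29 to 22.9 CPM at ZT13 and 0.308 to 3.02 CPM at ZT1 for 6 erythroid and platelet genes. Single markers whose groups did not overlap were Ly6c2 and Cd79b, above at ZT13, and Mrc1 and Prf1, below at ZT13. Over all genes tested, 2.66% lay above and 2.99% below in this way. The lists of these markers were mixed. Of the tested genes, 4 of 6 monocyte and dendritic cell genes and 2 of 3 B cell genes had positive log2 fold changes. Ccr2 and Ighm of these lists were negative, at -0.41 and -0.19. Positive too were 7 of 11 microglia and macrophage genes and 2 of 3 T and NK cell genes. Ly6c2 averaged 1165 ± 90.5 CPM at ZT13 and 835 ± 159.7 CPM at ZT1, and Cd79b averaged 3.18 ± 1.04 CPM at ZT13 and 1.51 ± 0.456 CPM at ZT1 (SD, n = 4 each). Mrc1 averaged 0.0337 ± 0.0673 CPM at ZT13 and 1.17 ± 0.743 CPM at ZT1, and Prf1 had no count at ZT13 and 0.391 ± 0.117 CPM at ZT1. None of these 4 passed adjusted p 0.05 in edgeR (0.403, 0.519, 0.433 and 0.255 in this order). The part of these differences in the values below was not tested. In bulk RNA, fewer cells of a type and less RNA per cell cannot be told apart.

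Neutrophils of the inflamed cord carried RNA for every step of initiation and elongation, at levels that differed widely between genes. Levels between genes are given as RPKM, that is CPM per kilobase of the longest protein-coding transcript. Eif1, which guards start codon choice, had the highest level at 379 ± 39.1 RPKM at ZT13 and 356 ± 79.1 RPKM at ZT1 (SD, n = 4 each here and for all levels below). Eif5a, a hypusine-carrying factor that helps ribosomes past difficult peptide bonds, stood at 342 ± 25.7 RPKM at ZT13 and 317 ± 30.3 RPKM at ZT1. Eef1a1, which delivers aminoacyl-tRNA to the ribosome, stood at 198 ± 39.0 RPKM at ZT13 and 193 ± 8.71 RPKM at ZT1. The library values of Eif1 and Eif5a overlapped at each time point. The 5 highest genes held 49.1% of the summed level of 2252 RPKM, 6 genes reached 100 RPKM, and 12 stayed under 5 RPKM.

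**Figure D1:**
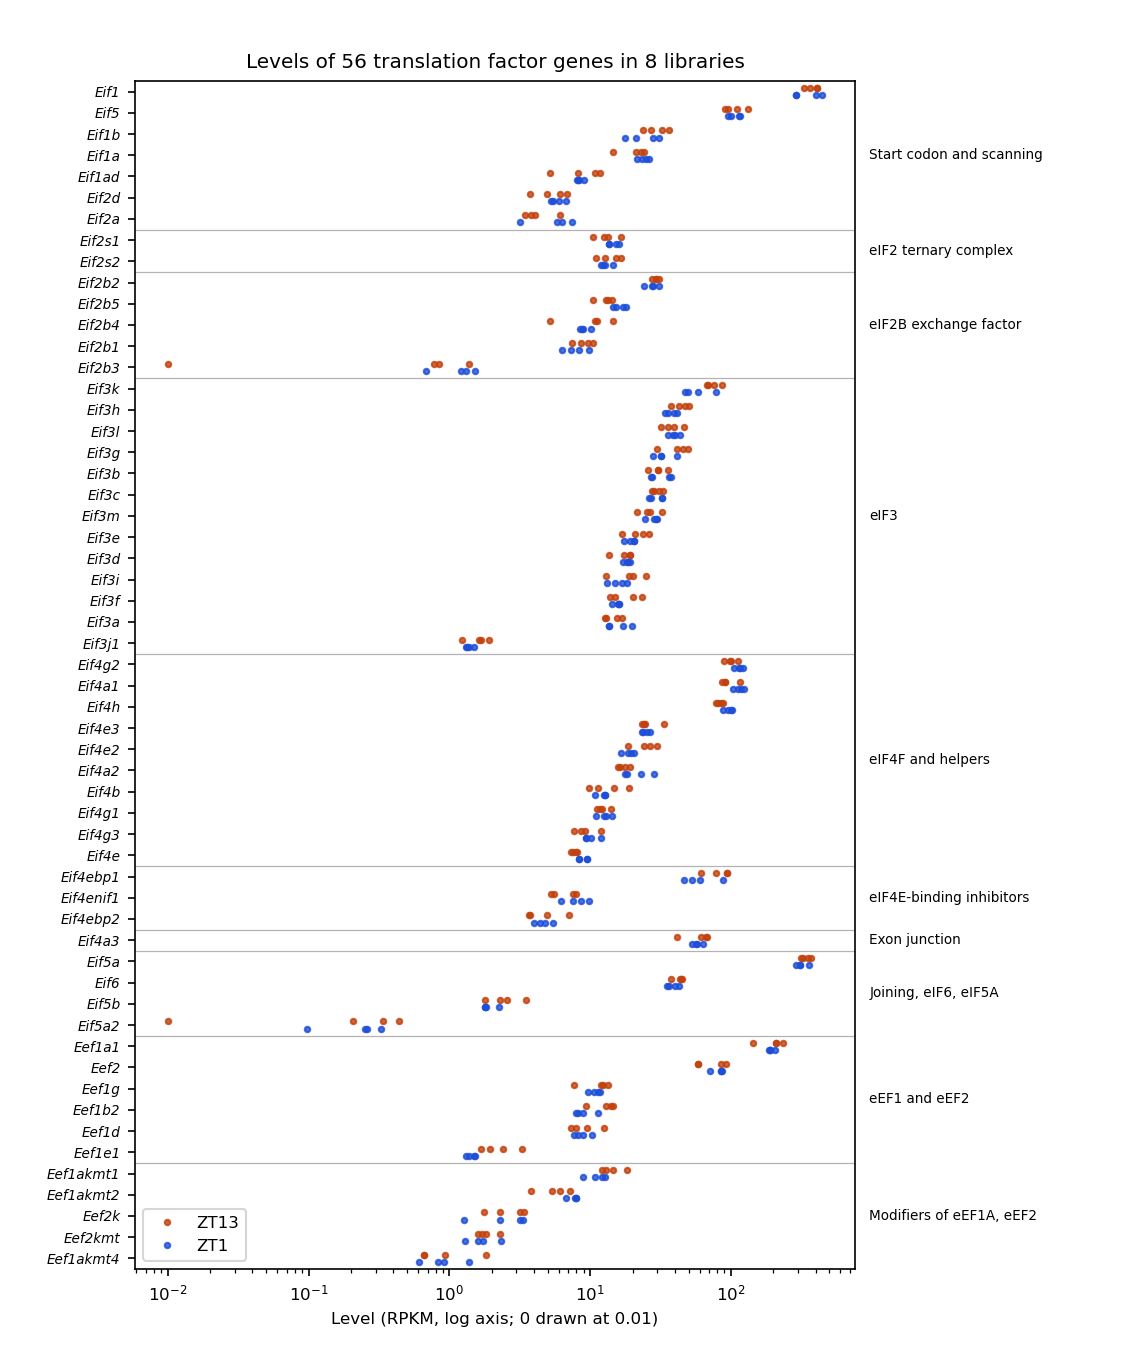
Level of each tested gene in each library, in RPKM on a log axis, with genes grouped by role and ordered by level within a role; orange points are ZT13 libraries and blue points ZT1 libraries. Most genes keep their place on the axis at both time points, while Eif2b3 and Eif5a2 each have a ZT13 library at 0, drawn at 0.01.

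None of the 56 tested genes passed adjusted p 0.05 for ZT13 over ZT1 with edgeR's quasi-likelihood test and Benjamini-Hochberg adjustment, against 0% of the 12610 genes tested. The smallest adjusted p was 0.494, for Eif4e2. Of the 56, 35 (62.5%) had a positive log2 fold change, meaning a larger value at ZT13, against 47.7% of all genes tested. Their median was 0.07, against -0.02 for all genes tested. At an unadjusted p under 0.05, 3 factor genes stood on the positive side (5.36%, against 4.35% of all genes tested) and 3 on the negative side (5.36%, against 4.85%). These shares lay near the background, so they are no result about the factor genes. With DESeq2, 0 of the 56 passed adjusted p 0.05, against 0.341% of all genes tested on the positive side and 0.595% on the negative side.

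Each fit gave a range for the difference of a single gene, under the library scaling used and without adjustment for the 56 genes. The 95% interval of the fold change lay within 2-fold either way for 51 of the 56 genes and within 1.5-fold for 30. The absolute log2 fold change was under 0.2 for 33 genes. The other 5 intervals reached past 2-fold, most of all those of Eif2b3 and Eif5a2, whose ZT13 values include a 0.

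**Figure D2:**
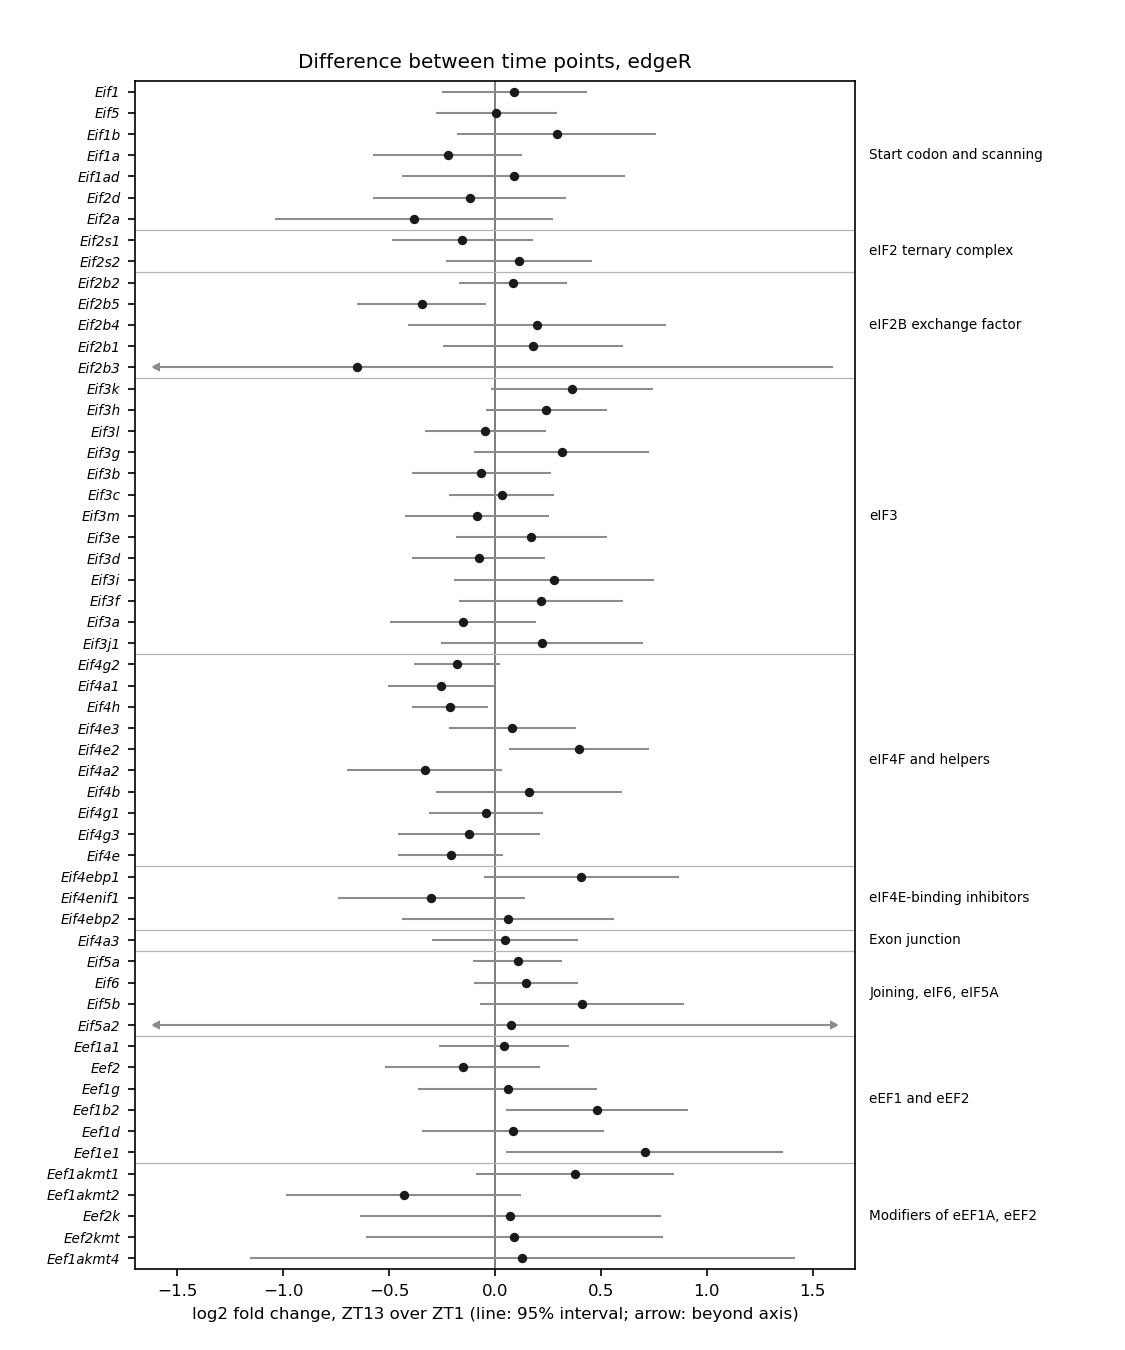
Log2 fold change of each tested gene, ZT13 over ZT1, from edgeR (points), with its 95% interval (lines; arrows run past the axis), grouped by role. Most intervals cross 0, and those that do not belong to the 6 genes with an unadjusted p under 0.05, from Eif2b5 at -0.35 to Eef1e1 at 0.71.

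The 7 genes of start codon selection and scanning divided evenly around 0, with 4 positive and 3 negative and a median log2 fold change of 0.01. Eif1 had 544, 439, 479 and 545 CPM in the ZT13 libraries and 383, 529, 589 and 383 CPM in the ZT1 libraries. The ZT13 values lay inside the ZT1 range, and 31.6% of the 50-base stretches of its transcript occur in 18 other genes. Eif5, which makes eIF2 hydrolyse its GTP at the start codon, had 367, 384, 532 and 447 CPM at ZT13 and 403, 461, 389 and 469 CPM at ZT1, with a log2 fold change of 0.01 ± 0.13 (SE). Eif1a, the partner of eIF1 in scanning, had 68.7, 65.4, 41.9 and 60.3 CPM at ZT13 and 66.9, 71.5, 75.3 and 62.1 CPM at ZT1. Its groups overlapped, with ZT13 replicate 3 the lowest of all libraries. Eif1b, a close paralog of Eif1, stood far below it per length, at 29.8 ± 5.60 RPKM at ZT13 and 24.4 ± 6.02 RPKM at ZT1. Eif2a, whose product is not the alpha subunit of eIF2 but a separate initiator tRNA carrier, had a log2 fold change of -0.38 ± 0.29, with 7.91 to 14.1 CPM at ZT13 and 7.30 to 17.1 CPM at ZT1.

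The 2 autosomal subunit genes of eIF2 lay within each other's spread at ZT13. At ZT1 the libraries ran from 13.5 to 16.1 RPKM for Eif2s1 and from 11.9 to 14.6 RPKM for Eif2s2, which overlap. Lengths were taken from the longest transcript, and over the length of all exons the genes stood 1.90-fold apart. Eif2s1, the alpha subunit that stress kinases phosphorylate, stood at 13.2 ± 2.48 RPKM at ZT13 and 14.7 ± 1.24 RPKM at ZT1. Eif2s2, the beta subunit, stood at 13.9 ± 2.43 RPKM at ZT13 and 12.9 ± 1.18 RPKM at ZT1. Of the 5 subunits of the exchange factor eIF2B, 3 were positive and 2 negative, and their levels were unequal, with Eif2b2 at 28.5 RPKM over all libraries and Eif2b3 at 0.963 RPKM.

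Eif2b5 encodes the catalytic epsilon subunit of eIF2B (chr16:20498817-20509323, plus strand, GRCm38). It had 34.1, 36.3, 26.8 and 32.9 CPM in the ZT13 libraries and 45.8, 39.1, 37.1 and 43.4 CPM in the ZT1 libraries. All 4 ZT13 libraries lay below all 4 ZT1 libraries, by a narrow gap. Its log2 fold change was -0.35 ± 0.14 (SE), and the gene did not pass (edgeR unadjusted p = 0.0304, adjusted p = 0.512). Eif2b3, the gamma subunit, had 0 counts in ZT13 replicate 3 (up to 0.0603 CPM, the value of 3 counts there) and 149 to 356 counts in each of the other 7 libraries. Eif2b4, the delta subunit, had 10.4 CPM in that library and 17.3 to 29.6 CPM in the others.

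The 13 tested subunits of eIF3, the scaffold that holds the small subunit, the initiation factors and the mRNA together, had 8 positive and 5 negative log2 fold changes with a median of 0.17. Their levels were far from equal although most of them share a complex. Eif3k, a subunit of the outer part of the complex, was highest at 66.5 RPKM over all libraries and Eif3j1, a loosely bound subunit, lowest at 1.496 RPKM, with 54.8% of its 50-base stretches shared with other genes. That span was 44.5-fold. The order depended on the length used. Over the length of all exons Eif3h, Eif3c and Eif3b stood above Eif3k, and the span from Eif3h, then the highest, to Eif3j1 was 23.8-fold. Per longest transcript, Eif3h stood at 41.1 RPKM, Eif3b at 31.3 RPKM, Eif3c at 29.7 RPKM and Eif3a, the largest subunit, at 15.3 RPKM.

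Eif3k had the smallest unadjusted p of the complex. It had 69.2, 78.6, 62.7 and 61.6 CPM at ZT13 and 45.2, 52.7, 70.9 and 42.6 CPM at ZT1. ZT1 replicate 3 lay among the ZT13 libraries and the other 3 ZT1 libraries below all of them. On the log2 scale ZT13 over ZT1 was 0.36 ± 0.17 (SE; edgeR unadjusted p = 0.0597, adjusted p = 0.559). Without ZT1 replicate 3 it was 0.54, with an adjusted p of 0.153 (edgeR), the smallest of any factor gene under any alternative. Eif3h, a subunit with a deubiquitinase-like fold, had a log2 fold change of 0.24 ± 0.13, and Eif3g, which binds RNA, of 0.31 ± 0.18. The core subunits Eif3a, Eif3b and Eif3c had log2 fold changes of -0.15, -0.06 and 0.03. Eif3j2 had 6 to 14 counts per library, too few to be tested. It shares 91.8% of its 50-base stretches with other genes, so the source of its few reads is uncertain.

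The 10 tested genes of eIF4F and its helpers were the role group with the most negative values, 7 negative and 3 positive, with a median log2 fold change of -0.15. Eif4e, the cap-binding subunit that limits eIF4F assembly in many cells, was the least abundant of them per length, at 7.71 ± 0.356 RPKM at ZT13 and 8.91 ± 0.628 RPKM at ZT1. It had 37.7, 36.3, 39.8 and 40.002 CPM in the ZT13 libraries and 47.1, 47.3, 41.9 and 41.6 CPM in the ZT1 libraries. The groups did not overlap and lay close to each other. The log2 fold change was -0.21 ± 0.11 (SE; edgeR unadjusted p = 0.0882, adjusted p = 0.611).

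Eif4h encodes an RNA-binding protein that stimulates the helicase eIF4A (chr5:134619721-134639490, minus strand). It had 239, 215, 233 and 219.6 CPM at ZT13 and 271, 262, 241 and 276 CPM at ZT1. Here too every ZT13 library lay below every ZT1 library. Its log2 fold change was -0.21 ± 0.08 (SE), the smallest SE among the genes with an unadjusted p under 0.05 (edgeR unadjusted p = 0.0245, adjusted p = 0.495). Across the 56 genes, 3 had all ZT13 libraries below all ZT1 libraries (Eif4h, Eif2b5 and Eif4e; 5.36%, against 2.99% of all genes tested). Eef1e1 alone had them above (1.79%, against 2.66%).

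Eif4a1, the main helicase of eIF4F, had 154, 159.9, 159.8 and 205 CPM at ZT13 and 198, 208, 220.1 and 183 CPM at ZT1. Of the ZT13 libraries 3 lay below all ZT1 libraries, and replicate 4 lay among them. On the log2 scale ZT13 over ZT1 was -0.26 ± 0.11 (SE; edgeR unadjusted p = 0.0455, adjusted p = 0.532). Its reads are uncertain, since 65.3% of the 50-base stretches of its transcript occur in 8 other genes. Eif4a2, a paralog also linked to microRNA repression, had a log2 fold change of -0.33 ± 0.16, with 42.7 to 52.3 CPM at ZT13 and 47.9 to 76.5 CPM at ZT1. Within a library the ratio of Eif4a2 to Eif4a1 per length was 0.182 at ZT13 and 0.188 at ZT1, and its log2 differed by -0.05 (exact two-sided permutation p = 0.8 over 70 assignments, 0.8 after adjustment over 5 ratios).

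The scaffold genes were dominated by Eif4g2, whose product lacks the eIF4E site and serves initiation without eIF4E. It had 803, 714, 790.3 and 904 CPM at ZT13 and 967, 908, 839 and 921 CPM at ZT1, with overlap of ZT13 replicate 4. The log2 fold change was -0.18 ± 0.09 (SE; edgeR unadjusted p = 0.0759, adjusted p = 0.594). Per length its level was 8.15 times that of Eif4g1, the canonical scaffold, at ZT13, and 8.98 times at ZT1. The difference of the log2 ratio, -0.14, was within the spread between libraries (exact permutation p = 0.343, adjusted p = 0.571). Eif4g1 stood at 12.3 ± 1.30 RPKM at ZT13 and 12.7 ± 1.38 RPKM at ZT1. Eif4b, which also helps eIF4A, had 37.6 to 72.9 CPM at ZT13 and 41.6 to 49.6 CPM at ZT1.

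Eif4e2 encodes a cap-binding homologue of eIF4E known for repressing the mRNAs it binds (chr1:87213914-87240488, plus strand). It had 64.8, 83.3, 103 and 92.3 CPM in the ZT13 libraries and 67.7, 64.8, 71.1 and 57.1 CPM in the ZT1 libraries. In ZT13, 3 libraries lay above all ZT1 libraries and replicate 1 among them. Its log2 fold change was 0.40 ± 0.15 (SE), a 1.32-fold difference with a 95% interval of 1.048 to 1.655. It had the smallest p of all factor genes and did not pass (edgeR unadjusted p = 0.0229, adjusted p = 0.494). Eif4e3, a further cap-binding homologue, had a log2 fold change of 0.08 ± 0.13.

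Eif4ebp1 encodes the eIF4E-binding protein that blocks eIF4F assembly until mTOR phosphorylates it. Per length it stood at 81.9 ± 15.5 RPKM at ZT13 and 61.7 ± 17.9 RPKM at ZT1, far above Eif4ebp2 (4.88 ± 1.598 RPKM at ZT13 and 4.67 ± 0.634 RPKM at ZT1), and Eif4ebp3 had no count in any library. For Eif4ebp3 65.5% of the 50-base stretches occur in 1 other gene, and how such reads were counted is not known, so no limit on its level is given. Eif4ebp1 had 122, 157, 189 and 186 CPM in the ZT13 libraries and 92.7, 121, 174 and 105 CPM in the ZT1 libraries. The groups overlapped through ZT1 replicate 3. On the log2 scale ZT13 over ZT1 was 0.41 ± 0.21 (SE; edgeR unadjusted p = 0.0769, adjusted p = 0.595). Eif4enif1, which carries eIF4E into the nucleus and to processing bodies, had a log2 fold change of -0.30 ± 0.20.

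The inhibitor was weighed against its target within each library. Per length, Eif4ebp1 stood 10.5-fold above Eif4e at ZT13 and 6.74-fold above it at ZT1. The log2 ratios were 3.02, 3.44, 3.56 and 3.54 at ZT13 and 2.30, 2.68, 3.38 and 2.66 at ZT1. ZT1 replicate 3 lay among the ZT13 libraries and the other 3 ZT1 libraries below them. The mean difference was 0.64, with an exact two-sided permutation p of 0.0571 and 0.286 after Benjamini-Hochberg adjustment over the 5 ratios, where the smallest p this design allows is 0.0286. Leaving out a library in turn gave differences of 0.48 to 0.84. The ratio of Eif1b to Eif1 (log2 difference 0.19, exact permutation p = 0.314, adjusted 0.571) and that of Eif1 to Eif5 (0.12, exact permutation p = 0.686, adjusted 0.8) also did not pass. These ratios are of RNA and hold nothing on protein or phosphorylation.

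**Figure D3:**
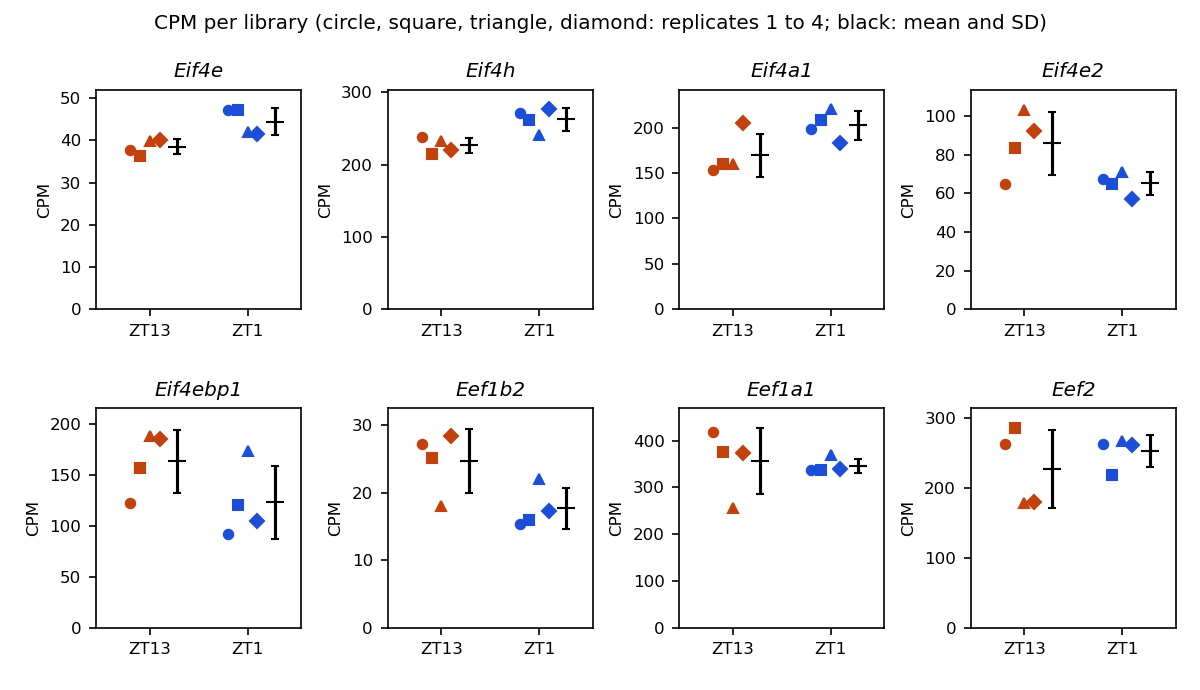
CPM per library (y axis, starting at 0) for 8 genes at ZT13 (orange) and ZT1 (blue); the marker shape gives the replicate number, and the black bar the mean ± SD of 4 libraries. The groups of Eif4e and Eif4h do not overlap, and ZT13 replicate 3 (triangle) is the lowest library for Eef1a1 and Eef2.

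The 4 genes of subunit joining, eIF6 and eIF5A were all positive, with a median log2 fold change of 0.13. Eif5a had 455, 468, 505 and 537 CPM at ZT13 and 443, 447, 518 and 416 CPM at ZT1. ZT1 replicate 3 lay between the 2 highest ZT13 libraries, and the log2 fold change was 0.11 ± 0.09 (SE). Eif5b, the GTPase that joins the large subunit, had 18.0, 27.2, 13.9 and 19.9 CPM at ZT13 and 17.5, 13.9, 14.2 and 13.9 CPM at ZT1. Its log2 fold change of 0.41 ± 0.22 was 0.21 without ZT13 replicate 2. Eif6, which keeps large subunits from joining too early, stood at 42.5 ± 3.19 RPKM at ZT13 and 38.4 ± 3.41 RPKM at ZT1. Eif5a2, the paralog of Eif5a, stood at 0.247 ± 0.191 RPKM at ZT13 and 0.234 ± 0.0965 RPKM at ZT1. Eif4a3, a helicase of the exon junction complex and not of eIF4F, had a log2 fold change of 0.05 ± 0.15.

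Elongation was represented mainly by Eef1a1 and Eef2, the GTPase that moves the ribosome along. Eef1a1 had 419, 375, 256 and 374 CPM at ZT13 and 337, 338, 369 and 339 CPM at ZT1. ZT13 replicate 3 was the lowest library of all and the other 3 ZT13 libraries lay above every ZT1 library, with a log2 fold change of 0.04 ± 0.14 (SE). Without replicate 3 it was 0.17. Eef2 had 263, 285, 179 and 180.0 CPM at ZT13 and 262, 218, 267 and 261 CPM at ZT1. Replicates 3 and 4 of ZT13 lay below all ZT1 libraries, and the log2 fold change was -0.15 ± 0.16. For Eef1a1, 60.6% of the 50-base stretches occur in 21 other genes, and for Eef1g, the gamma subunit of the eEF1 exchange complex, 64.3% occur in 5 others, so the counts of both are uncertain.

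Eef1b2 encodes the exchange subunit that recharges eEF1A with GTP (chr1:63176825-63180486, plus strand). It had 27.3, 25.1, 18.0 and 28.4 CPM in the ZT13 libraries and 15.4, 15.9, 22.1 and 17.3 CPM in the ZT1 libraries. ZT13 replicate 3 and ZT1 replicate 3 crossed over, and the other libraries were separate. The log2 fold change was 0.48 ± 0.19 (SE; edgeR unadjusted p = 0.0319, adjusted p = 0.516). Eef1d and Eef1g, further genes of the eEF1 exchange complex, had log2 fold changes of 0.08 ± 0.19 and 0.06 ± 0.19.

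Eef1e1 carries an elongation factor's name, but its product is a part of the multi-tRNA synthetase complex (chr13:38644207-38659058, minus strand). It had 4.94, 4.31, 6.17 and 8.37 CPM at ZT13 and 3.81, 3.89, 3.505 and 3.35 CPM at ZT1. All ZT13 libraries lay above all ZT1 libraries, with replicate 4 of ZT13 the highest. The log2 fold change of 0.71 ± 0.29 (SE) was the largest of the factor genes and did not pass (edgeR unadjusted p = 0.0368, adjusted p = 0.519). Without ZT13 replicate 4 it was 0.50.

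Of the enzymes that modify elongation factors, 4 of 5 tested genes were positive, with a median log2 fold change of 0.09. Eef2k, the kinase that inhibits eEF2, varied widely within both groups, with 11.7 to 22.2 CPM at ZT13 and 8.41 to 22.0 CPM at ZT1. Eef1akmt1 and Eef1akmt2, methyltransferases of eEF1A, had log2 fold changes of 0.38 ± 0.21 and -0.43 ± 0.25, and neither passed. Eef1akmt3 had 1 count in a single library of each group and was not tested.

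ZT13 replicate 3 stood apart from the other libraries for these genes. It held the lowest value of 23 of the 56 genes (41.1%), against 21% of all genes tested, and the highest of 10 (17.9%, against 16%). The median deviation of the factor genes from their mean over 8 libraries was -0.20 on the log2 scale in that library, against -0.05 to 0.11 in the other 7. Genes known to carry a terminal oligopyrimidine (TOP) tract, through which mTOR controls their translation, were 9 of the tested genes: Eef1a1, Eef1b2, Eef1d, Eef1g, Eef2, Eif3e, Eif3f, Eif3h and Eif4b. This list was taken from general knowledge, and no tract was read from sequence here. ZT13 replicate 3 was the lowest library for 7 of these 9 and for 16 of the other 47. It was also the library with the fewest detected genes, 13945; the part of this in the values was not tested.

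**Figure D4:**
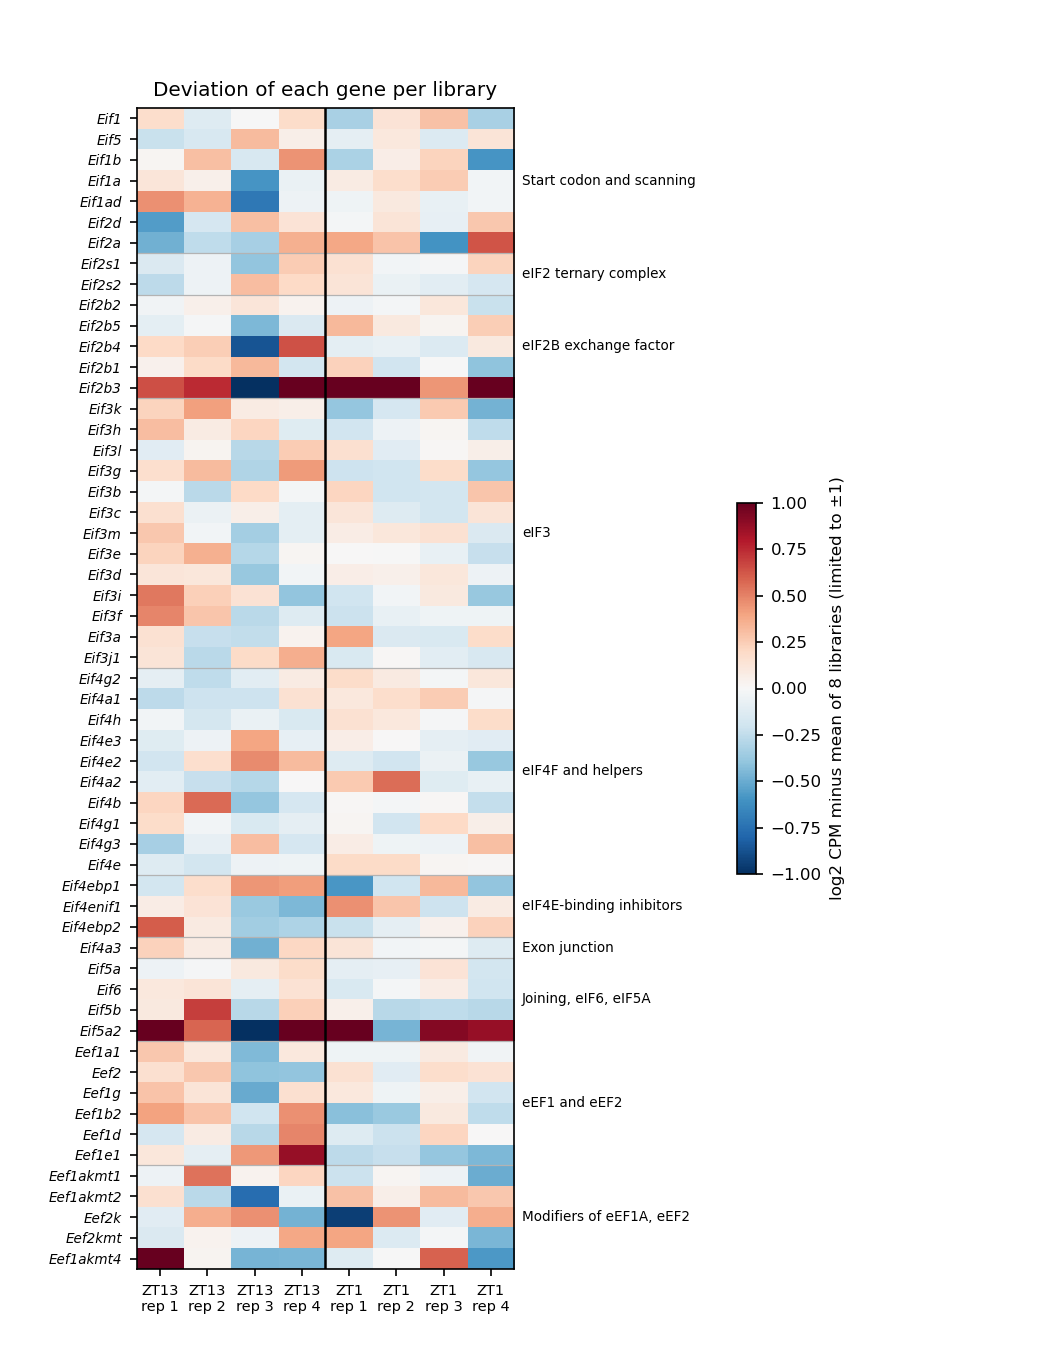
Log2 CPM of each tested gene in each library minus its mean over the 8 libraries (colour, limited to ±1), with ZT13 libraries left of the black line and ZT1 libraries right of it, grouped by role. The column of ZT13 replicate 3 holds the lowest value of 7 of the 9 TOP genes, including Eef1a1, Eef2 and Eef1g, and is red for others such as Eif4e2 and Eif4e3.

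The spread between libraries was wider at ZT13 for 38 of the 56 genes (67.9%), against 65.9% of all genes tested. The median SD of log2 CPM was 0.27 at ZT13 and 0.14 at ZT1 for the factor genes, and 0.39 at ZT13 and 0.31 at ZT1 for all genes. Without ZT13 replicate 3 the count was 28 of 56, against 57.7% of all genes. The TOP genes had 8 positive log2 fold changes and 1 negative (Eef2), with a median of 0.16, against 27 positive of 47 and a median of 0.06 for the other factor genes. Without ZT13 replicate 3 the TOP median was 0.21, and with each library left out in turn it ranged from 0.07 to 0.21.

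Transcript length moved with the direction of the difference, for these genes and for the table as a whole. Among the factor genes with a transcript of up to 1500 bases, 10 of 12 were positive with a median log2 fold change of 0.19, against 74.6% and 0.26 for all genes of that length. From 1500 to 3000 bases, 16 of 25 were positive with a median of 0.08, against 45.6% and -0.03 for all genes. Over 3000 bases, 9 of 19 were positive with a median of -0.04, against 37.2% and -0.10. Spearman's rho between length and log2 fold change was -0.33 over the 56 genes and -0.26 over the 12310 tested genes with a length. The genes share the same 8 libraries, so these are descriptions of them. Among the short transcripts are Eif3k, Eif3h, Eif3g and Eif1b, all positive, and Eif3m, negative at -0.08. Among the long are Eif4g2, Eif4e and Eif4g1, all negative, and Eif4e2 and Eif5b, positive at 0.40 and 0.41. The part of length in their values was not tested.

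**Figure D5:**
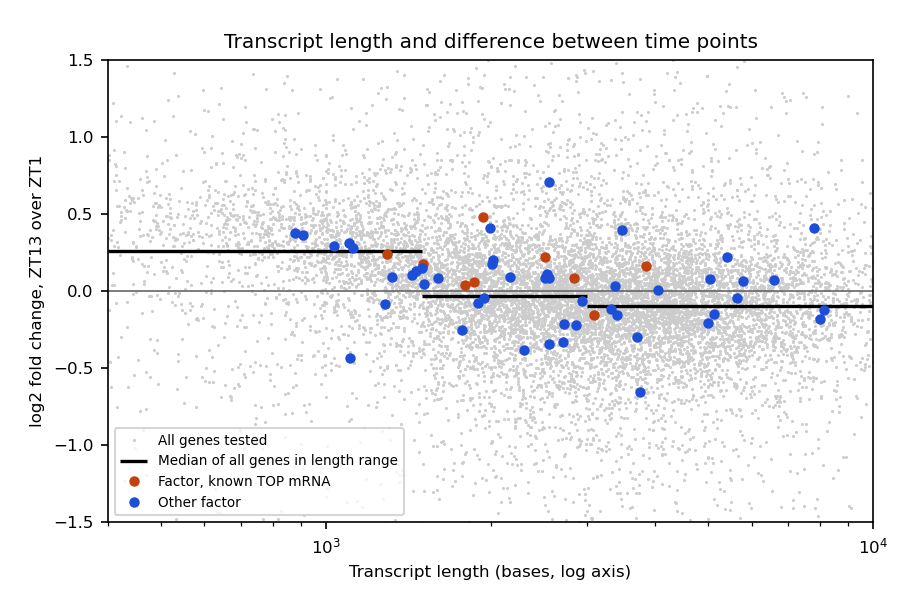
Log2 fold change, ZT13 over ZT1 (y axis), against transcript length in bases (log x axis) for all genes tested (grey), factor genes known as TOP mRNAs (orange) and other factor genes (blue). Black bars mark the median of all genes up to 1500 bases (0.26), from 1500 to 3000 bases (-0.03) and over 3000 bases (-0.10).

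The promoters of these genes were read for the E-box CACGTG, the palindromic element bound by the clock proteins CLOCK and BMAL1 and also by MYC, USF and related factors. Of 44 factor genes with a RefSeq promoter entry, 12 (27.3%) held it within 250 bases before a start, against 1771 of 25748 autosomal genes (6.88%). That background was not limited to protein-coding or tested genes, so the shares are of unlike sets. A gene with several starts counted if any of them had the motif. The motif reads the same on both strands. The windows below, from RefSeq on GRCm38.p6 and written in the direction of transcription, are shown because they give the motif in genes described above (a scaffold, a helicase, subunits of eIF3, eIF5A and eEF2), with the motif in capitals.
Eif4g1: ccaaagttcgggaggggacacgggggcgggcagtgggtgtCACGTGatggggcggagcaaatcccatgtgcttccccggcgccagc
Eif4a1: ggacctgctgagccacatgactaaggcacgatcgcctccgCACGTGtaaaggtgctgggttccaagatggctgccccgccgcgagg
Eif3f: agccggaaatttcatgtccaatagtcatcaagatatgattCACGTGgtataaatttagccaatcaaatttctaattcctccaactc
Eif3k: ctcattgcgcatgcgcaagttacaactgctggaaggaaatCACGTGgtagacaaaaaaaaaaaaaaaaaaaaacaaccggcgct
Eif5a: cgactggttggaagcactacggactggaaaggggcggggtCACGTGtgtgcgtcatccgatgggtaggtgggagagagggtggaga
Eef2: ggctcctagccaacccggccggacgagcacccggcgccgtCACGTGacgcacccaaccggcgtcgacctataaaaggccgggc

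These windows lie at chr16:20672633-20672718 (plus strand) for Eif4g1, chr11:69672567-69672652 (minus strand) for Eif4a1 and chr7:108934307-108934392 (plus strand) for Eif3f. Those of Eif3k, Eif5a and Eef2 lie at chr7:28981889-28981972 (minus strand), chr11:69921415-69921500 (minus strand) and chr10:81176548-81176630 (plus strand). None of the 6 overlaps an annotated exon; 6 of the 15 windows found did, among them a second one of Eif5a, and those and the 3 windows of Eef1akmt4, Eef2k and Eif5a2 without exon overlap were not printed. The windows of Eif4g1 and Eif5a lie inside the annotated genes, so their RefSeq starts are internal ones, and the other 4 lie outside. Each motif starts between 43 bases before the RefSeq start (Eef2) and 189 bases before it (Eif4a1).

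Genes with the motif stood on both sides of 0. Of the 12 genes that held it, 7 were positive and 5 negative between ZT13 and ZT1, with a median log2 fold change of 0.07 and a range from -0.26 (Eif4a1) to 0.36 (Eif3k). Of the 32 tested genes with a promoter entry and no motif, 19 were positive, with a median of 0.04. The other genes with the motif were Eef1akmt4, Eef2k, Eif1b, Eif4e, Eif4h and Eif5a2.

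The wider machinery around these factors was read from 7 lists with 77 genes: eIF2 kinases and stress response, mRNA-binding regulators, mTOR and MNK signalling, termination and recycling, hypusine and diphthamide synthesis, mitochondrial factors, and aminoacyl-tRNA synthetases. None of the 77 passed adjusted p 0.05 with edgeR. At an unadjusted p under 0.05, 4 stood on the positive side (5.19%, against 4.35% of all genes tested) and 4 on the negative side (5.19%, against 4.85%), shares near the background. With DESeq2, 2 of the 77 passed adjusted p 0.05, Mtor on the positive side and Dhx29 on the negative side, against 0.341% and 0.595% of all genes. The median log2 fold change was -0.01. The synthetases, which charge tRNAs, had 8 positive and 12 negative values with a median of -0.02.

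Dhx29, a helicase that helps ribosomes scan structured leaders, had the smallest p of the 77. It had 16.7, 16.7, 11.4 and 11.2 CPM in the ZT13 libraries and 29.3, 27.2, 27.9 and 23.6 CPM in the ZT1 libraries. Every ZT13 library lay well below every ZT1 library. Its log2 fold change was -0.95 ± 0.19 (SE); the gene did not pass with edgeR (adjusted p = 0.248) and passed with DESeq2 (adjusted p = 0.00183).

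Mtor, the kinase that phosphorylates the 4E-binding proteins, had 16.9, 21.2, 17.3 and 16.7 CPM at ZT13 and 11.04, 12.6, 11.7 and 10.2 CPM at ZT1. The groups did not overlap. On the log2 scale ZT13 over ZT1 was 0.66 ± 0.16 (SE), with an adjusted p of 0.373 in edgeR and 0.0288 in DESeq2. Rps6kb1, a kinase downstream of mTOR, had a log2 fold change of -0.31 ± 0.14. Among the stress genes, Ddit3, a transcription factor induced when eIF2 is phosphorylated, had 29.5 ± 3.15 CPM at ZT13 and 20.3 ± 5.87 CPM at ZT1, and Ppp1r15a, which recruits the eIF2 phosphatase, had 176 ± 65.3 CPM at ZT13 and 259 ± 82.2 CPM at ZT1; neither passed.

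Dph2, needed for the diphthamide of eEF2, had a log2 fold change of 1.09 ± 0.36 at a low level, 4.22 ± 0.630 CPM at ZT13 and 1.98 ± 0.563 CPM at ZT1. Dph6, of the same pathway, had -0.66 ± 0.71. Etf1, the release factor that reads stop codons, had 127 ± 15.4 CPM at ZT13 and 154 ± 13.2 CPM at ZT1, and Denr, which recycles ribosomes, 24.6 ± 1.84 CPM at ZT13 and 20.7 ± 1.195 CPM at ZT1. The mitochondrial factors Mtif3 and Gfm1 had log2 fold changes of -0.65 ± 0.21 and 0.48 ± 0.20. Wars and Tars, synthetases for tryptophan and threonine, had -0.39 ± 0.18 and -0.40 ± 0.19, and the helicase Ddx3x had -0.21 ± 0.12. None of these passed with edgeR or DESeq2.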

How the data were processed

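RNA from 8 sorted neutrophil samples was analysed, 4 at ZT13 and 4 at ZT1. Per the labels' protocols, cDNA was made with SMART-Seq v4 and libraries with Nextera XT, which does not mark strand, and read as single reads of 50 bases. The labels do not identify animals, so p-values measure the spread between these 8 libraries, which is technical where libraries share a mouse.

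The authors deposited raw read counts per gene. Build GRCm38, STAR 2.7.10b, Subread 2.0.3 with featureCounts, FastQC and DESeq2 1.46.0 are named in the submitters' processing notes. The sources used here do not give the annotation release or the handling of reads that map to several places. Symbols, coordinates and lengths came from GENCODE M21, which matched 22222 of 23369 identifiers without their versions; unmatched ones held 0.125% of counts.

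Counts were tested with edgeR 4.0.16 (R 4.3.3; filterByExpr with minimum count 10 and minimum total 15, TMM, robust quasi-likelihood F-tests, design by group) on all 12610 genes kept, adjusted by Benjamini-Hochberg with 0.05 as the threshold. Each SE came from the log2 fold change and its F statistic, and CPM values were TMM-scaled. The common biological coefficient of variation was 0.498. Depth put 3 counts at 0.0414 to 0.0673 CPM, which covers counting error only. The 5 ratios used 0.5 added to each count and exact permutation over 70 assignments. Procedures were tested on simulated data.

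Shared sequence was measured as the share of 50-base stretches of a gene's transcript found in other genes' transcripts. The median over the factor genes was 5.84%, and 14 exceeded 20%. Overlapping and antisense genes cannot be told apart.

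The members, the role, TOP, pathway and marker lists and the alternatives were chosen with earlier results of these data known. Named by rule are the 10 genes per direction with the smallest p, the most abundant gene of each role, both genes of each ratio, all TOP genes, untested genes, and 2 genes of each pathway list; the others were chosen after their values were seen. Alternatives covered DESeq2 1.42.0, limma-voom (limma 3.58.1), other normalizations and filters, a replicate block, and each library left out; leaving out libraries for the TOP median and the spread was added after seeing the data. Eef1a2 and Eif4e1b were not analysed here.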

Additional observations from a re-analysis of the deposited data

Results flagged for a closer look

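Of 122 groups of 4 libraries examined, 7 held a library far from the other 3 by Dixon's test, and chance alone flags about 1 in 20 groups. At ZT13, Eif4a1 stood at 204.8 CPM in replicate 4, against 153.8 to 159.9 CPM in the others, and Eif4e3 at 83.7 CPM in replicate 3, against 58.8 to 61.6 CPM. At ZT1, Eef1a1 stood at 369 CPM in replicate 3, against 337 to 339 CPM, and Eif5b at 17.5 CPM in replicate 1, against 13.9 to 14.2 CPM. The low values at ZT1 were Eef2 at 218 CPM in replicate 2, against 261 to 267 CPM, Eif4b at 41.6 CPM in replicate 4, against 48.4 to 49.6 CPM, and Eif3f at 35.8 CPM in replicate 1, against 39.6 to 40.3 CPM. Although ZT13 replicate 3 was the lowest library for 23 genes, only 1 of these 7 values, the high Eif4e3, was in it.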

How the results depend on the processing

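No factor gene passed adjusted p 0.05 under any of the 16 alternatives run. The count with a positive log2 fold change ranged from 29 of 57 without ZT13 replicate 1 to 36 of 58 with no filter. The number tested ranged from 51 to 58. Of all genes tested, 41.2% were positive with library totals and 50.0% with upper-quartile factors, the lowest and highest shares. The median of the factor genes ranged from 0.01 to 0.09. At an unadjusted p under 0.05 the positive side held 3 genes, 5 with DESeq2 and 0 to 5 with a library left out. The negative side held 3, 6 with library totals (beside 2 positive), 0 with a filter of 5 CPM in 4 libraries, 1 with the replicate block and 0 to 5 with a library left out. The positive count was 1 without ZT1 replicate 1 or 2, 5 without ZT1 replicate 3 and 0 without ZT1 replicate 4; the negative count was 1 without ZT13 replicate 2 or 3, 0 without ZT1 replicate 1 and 5 without ZT1 replicate 3. Same-numbered libraries of the groups did not deviate together (correlations of 0.01, 0.02, -0.05 and 0.02), and whether they share more than a number was not tested. The numbers are those of the sample titles. In the sample descriptions ZT13 replicates 3 and 4 are numbered 4 and 5, while the ZT1 replicates keep their numbers. No ZT13 description carries the number 3. The block and the correlations paired title numbers, so they cannot speak for pairs by description number. The block made no adjusted call.

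Of 575 pairs of a named gene and an alternative, 551 kept the direction and 24, in 9 genes, turned. With library totals, which put the median of all genes at -0.08, Eef1a1 was -0.011, Eif3c -0.037, Eif4a3 -0.0094 and Eif5 -0.063. Eif5 was also -0.013 with no filter, -0.0070 with limma-voom and -0.0056 with the replicate block. Leaving out a library gave ranges of -0.049 to 0.17 for Eef1a1, -0.032 to 0.20 for Eef1g, -0.025 to 0.080 for Eif3c, -0.027 to 0.18 for Eif4a3, -0.15 to 0.24 for Eef2k, -0.037 to 0.29 for Eif4b, -0.11 to 0.075 for Eif5, -0.091 to 0.18 for Eef1d and -0.12 to 0.015 for Eif4g1. The log2 ratios ranged from -0.18 to 0.071 for Eif4a2 to Eif4a1 and -0.018 to 0.28 for Eif1 to Eif5. The cause was not tested. Above a few CPM, the spread between libraries and not depth limits these values.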

Other observations

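Factor genes on the sex chromosomes fell outside the rule. Eif1ax, the X-linked eIF1A gene, stood at 29.8 ± 4.89 CPM at ZT13 and 27.6 ± 6.34 CPM at ZT1 (SD, n = 4 each). Eif2s3x, the X-linked gene for the gamma subunit of eIF2, stood at 3.94 ± 0.528 CPM at ZT13 and 3.95 ± 0.559 CPM at ZT1. Its Y-linked copy Eif2s3y stood far above it in CPM, at 35.2 ± 14.6 CPM at ZT13 and 57.5 ± 12.98 CPM at ZT1. These CPM values are not scaled by transcript length. Between the time points Eif2s3y had a log2 fold change of -0.71 ± 0.29 (SE, edgeR unadjusted p = 0.0373, adjusted p = 0.519). The sources used here do not say how reads that match both copies were counted. Of 9 named pseudogenes of the factor genes in the table, Eif4a-ps4 was the most abundant, at 1.88 ± 0.636 CPM at ZT13 and 2.56 ± 0.174 CPM at ZT1.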
